A study of Homo sapiens with 6 samples.

Results

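NF-kB is a small family of dimeric transcription factors, and the 10 genes described here encode its 5 subunits and 5 proteins that restrain or modify it. They were taken by name: NFKB1, NFKB2, REL, RELA and RELB for the subunits, and NFKBIA, NFKBIB, NFKBIE, TNFAIP3 and BCL3 for the inhibitors and modifiers. Of the 10, 9 had a row in the deposited table of 11363 genes, all 5 subunits and 4 of the inhibitors. BCL3 had no row and was not analysed here.

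The libraries came from the cell line NOMO-1, grown from a human acute leukaemia with monocytic features. The MSLN-KO group (3 libraries) carried a knockout of MSLN, the gene of mesothelin, a GPI-anchored surface glycoprotein, and the WT group (3 libraries) was the parental line. No treatment of either group is named, and the labels say neither whether MSLN-KO cells were 1 clone or a pool nor whether replicates were separate cultures, so the spread behind each p-value is that between these libraries and may be technical. Values are TMM-normalized CPM, read counts scaled to the size of each library and by a further factor for its composition. The libraries held between 23665824 and 30804446 reads in the listed genes.

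MSLN itself stood at 45.7, 46.9 and 45.3 CPM in MSLN-KO replicates 1 to 3, against 153, 123 and 106 CPM in WT replicates 1 to 3 (log2 change -1.43, SE 0.10, limma adjusted p = 1.5e-07), so transcript of the gene remained in the knockout. All 22 markers of myeloid and monocytic identity were listed, and 14 were called lower and 5 higher (86.4% called, beside 45.7% of all genes). The 5 were CD33, CEBPA, CEBPB, ITGAX and FCGR1A, whereas PTPRC, SPI1 and FCER1G were not called. The summed level of the 22 ran from 9248 to 9732 CPM in MSLN-KO and from 19531 to 20716 CPM in WT. Most of that sum was LYZ, with a mean of 6081 CPM in MSLN-KO and 14540 CPM in WT. Of markers of other cells, 2 of 10 for T and NK cells (NKG7 and NCAM1) and 1 of 7 for the B lineage (CD79B) had a row. The same held for 1 of 8 erythroid or megakaryocytic (ITGA2B), 1 of 8 epithelial or mesothelial (KRT18) and 1 of 8 stromal or endothelial markers (PECAM1), whereas CD3D, HBB, EPCAM and COL1A1 had none. NKG7, NCAM1, CD79B and PECAM1 were called lower and ITGA2B higher. CD79B lay below 4.90 CPM in every MSLN-KO library and ITGA2B in every WT library. Every listed gene reached that level in at least 3 libraries. Both can thus be listed through the group where they are high, so their calls are no separate result. The same holds for CD163 and CD14 among the 14 myeloid markers called lower. The part of the shift in markers in the results given here was not tested. Mitochondrially encoded transcripts, read as a sign of RNA quality, summed to between 7844 and 8219 CPM in MSLN-KO and between 8217 and 8855 CPM in WT.

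In resting cells, dimers of the subunits are held in the cytoplasm by IkB proteins. Signals from TNF, interleukin-1 and Toll-like receptors activate the IkB kinase, IkB is phosphorylated and degraded, and the freed dimers enter the nucleus and bind the kappa B motif. Among the genes they switch on are those of their own inhibitors, which closes a negative feedback loop, and monocytes use the pathway for much of their cytokine production.

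Of the 9 listed genes, 3 were called in MSLN-KO against WT at a limma adjusted p under 0.05, with NFKBIB higher and NFKB1 and NFKBIA lower. The same rule called 45.7% of all genes, 22.4% higher and 23.3% lower, so 3 of 9 (33.3%) was not above the background. The median log2 change of the 9 genes was 0.03, beside 0.01 over all genes tested. In 4 of the 9 genes (44.4%) no MSLN-KO library overlapped the WT libraries, beside 54.7% of all genes. In RELB, which is among the 4, the gap was smaller than the CPM of 1 read. The largest absolute log2 change among them was 0.51, of NFKBIB, and 12.7% of all genes had a larger one. Fewer cells with a transcript and less transcript per cell cannot be told apart in these bulk libraries.

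**Figure D1:**
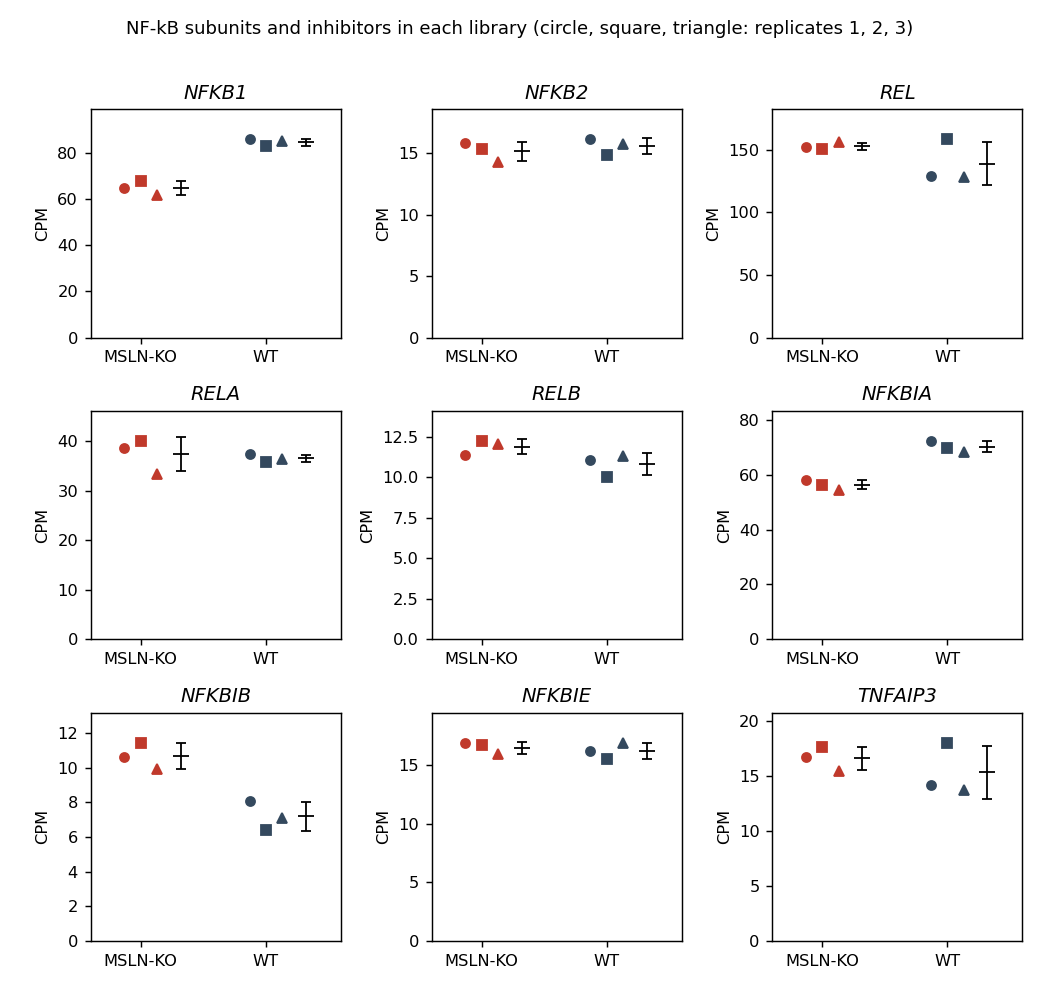
CPM of the 9 listed NF-kB genes in each library, with MSLN-KO on the left of each panel and WT on the right, the replicate number as the marker shape, and the mean with its SD (n = 3) beside the points. NFKB1 and NFKBIA lie lower in all 3 MSLN-KO libraries, NFKBIB and RELB lie higher in all 3, and WT replicate 2 stands above the other WT libraries in REL and TNFAIP3.

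NFKB1 encodes p105, the precursor of the subunit p50, and p105 itself retains other subunits in the cytoplasm. The gene (ENSG00000109320.13, GRCh38 chromosome 4, 102501329 to 102617302, plus strand) stood at 65.0, 67.9 and 61.7 CPM in MSLN-KO and at 86.1, 83.0 and 85.2 CPM in WT. Every MSLN-KO library lay below every WT library. The mean was 64.9 ± 3.11 CPM in MSLN-KO and 84.7 ± 1.604 CPM in WT (SD, n = 3 each), or 76.5% of the WT level. The log2 change was -0.38 (SE 0.06, limma adjusted p = 0.00014). It is shown here with the 250 bases before a RefSeq start (GRCh38.p14, chr4:102501109-102501358, plus strand), since it was the 1 subunit gene called. Capitals mark the kappa B motif found there. Another RefSeq start of the gene, at 102501934, had no match in its 250 bases.
NFKB1: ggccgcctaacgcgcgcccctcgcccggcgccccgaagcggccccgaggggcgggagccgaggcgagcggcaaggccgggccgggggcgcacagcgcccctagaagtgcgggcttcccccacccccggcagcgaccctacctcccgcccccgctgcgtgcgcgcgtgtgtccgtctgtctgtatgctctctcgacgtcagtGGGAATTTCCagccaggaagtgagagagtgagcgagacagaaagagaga

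The other 4 subunits were not called. RELA (p65) and RELB carry the domain that activates transcription, as does REL, the subunit c-Rel of blood cells, whereas NFKB2 encodes p100, the precursor of p52 that also acts as an inhibitor. RELA (chromosome 11, 65653596 to 65663094) stood at 38.7, 40.1 and 33.5 CPM in MSLN-KO and at 37.4, 35.9 and 36.4 CPM in WT, and the groups overlapped. Its log2 change of 0.03 had an interval of -0.13 to 0.19 (95%, limma, adjusted p = 0.77).

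NFKB2 (chromosome 10, 102394110 to 102402529) had 15.8, 15.4 and 14.3 CPM in MSLN-KO and 16.2, 14.9 and 15.8 CPM in WT. The groups overlapped, and the log2 change was -0.04 with an interval of -0.21 to 0.13 (limma adjusted p = 0.73). RELB (chromosome 19, 45001430 to 45038198) had 11.3, 12.2 and 12.1 CPM in MSLN-KO and 11.1, 10.02 and 11.3 CPM in WT. Its lowest MSLN-KO library (11.342 CPM) lay just above its highest WT library (11.332 CPM), a gap below the CPM of 1 read (0.0314 or more). It was not called (log2 change 0.13, interval -0.06 to 0.31, limma adjusted p = 0.25). These intervals are not adjusted for the number of genes.

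REL (chromosome 2, 60881521 to 60931610) had the highest read number of the 9 genes. It stood at 151.7, 150.2 and 156 CPM in MSLN-KO and at 129, 158 and 128 CPM in WT replicates 1 to 3. WT replicate 2 was thus above all MSLN-KO libraries and the other WT libraries were below them. Over all 6 libraries the log2 change was 0.14 (interval -0.02 to 0.31, limma adjusted p = 0.13). Without WT replicate 2 it was 0.24 and was called (limma adjusted p = 0.0024), so 1 library decided the call. A noncoding gene on the same strand covers 43.3% of the annotated exon bases of REL, and how reads shared between them were counted is not given in the sources used here.

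NFKBIA encodes IkB-alpha, the inhibitor that is degraded and rebuilt fastest after stimulation. The gene (ENSG00000100906.11, chromosome 14, 35401511 to 35404749, minus strand) stood at 58.1, 56.4 and 54.6 CPM in MSLN-KO and at 72.4, 69.7 and 68.4 CPM in WT. Every MSLN-KO library lay below every WT library. The mean of 56.4 ± 1.76 CPM in MSLN-KO was 80.3% of the 70.2 ± 2.02 CPM in WT (SD, n = 3 each; log2 change -0.31, SE 0.06, limma adjusted p = 0.00068). Its 250 bases before the RefSeq start (GRCh38.p14, chr14:35404750-35404999, minus strand) are given because it, like NFKB1, was called lower and holds the motif.
NFKBIA: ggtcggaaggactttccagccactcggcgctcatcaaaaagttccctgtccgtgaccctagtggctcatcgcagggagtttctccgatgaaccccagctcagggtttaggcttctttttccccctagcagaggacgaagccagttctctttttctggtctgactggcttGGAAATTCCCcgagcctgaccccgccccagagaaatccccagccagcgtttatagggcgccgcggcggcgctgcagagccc

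NFKBIB encodes IkB-beta, an inhibitor of the same family that is rebuilt more slowly. The gene (ENSG00000104825.17, chromosome 19, 38899700 to 38908893, plus strand) moved the other way, with 10.6, 11.5 and 9.93 CPM in MSLN-KO and 8.08, 6.42 and 7.08 CPM in WT. Every MSLN-KO library lay above every WT library, and the mean rose 1.48-fold, to 10.7 ± 0.763 CPM in MSLN-KO, against 7.19 ± 0.833 CPM in WT (SD, n = 3 each). The log2 change was 0.51 (SE 0.10, limma adjusted p = 0.0013). It had the fewest reads of the 9 genes, between 166 and 316 per library, and 40 of its 2324 exon bases overlap SIRT2 on the other strand.

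The other inhibitors were not called. NFKBIE, which encodes IkB-epsilon, had 16.9, 16.7 and 15.9 CPM in MSLN-KO and 16.2, 15.5 and 16.9 CPM in WT (chromosome 6, 44258166 to 44265788). Its groups overlapped, and the log2 change was 0.02 (interval -0.14 to 0.19, limma adjusted p = 0.82). TNFAIP3, the gene of A20, a ubiquitin-editing enzyme that shuts the pathway off upstream of the IkB kinase, had 16.7, 17.6 and 15.5 CPM in MSLN-KO and 14.2, 18.0 and 13.7 CPM in WT (chromosome 6, 137867188 to 137883312). As in REL, WT replicate 2 was the highest of all 6 libraries and the other WT libraries were the lowest. The log2 change was 0.12 (interval -0.11 to 0.34, limma adjusted p = 0.38), and without WT replicate 2 it was 0.23 (limma adjusted p = 0.052), still not called.

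**Figure D2:**
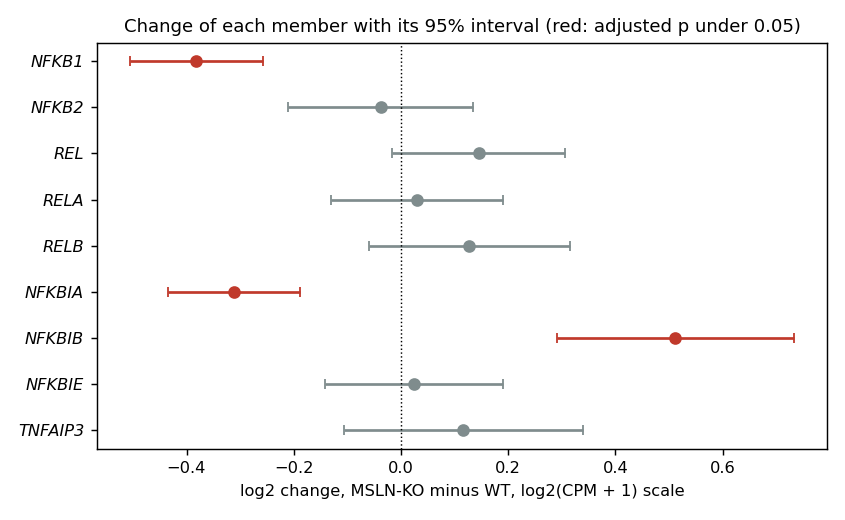
Log2 change of each gene, MSLN-KO minus WT, on the log2(CPM + 1) scale, with its unadjusted 95% interval from limma; red marks an adjusted p under 0.05. The intervals of NFKB1 and NFKBIA lie below 0, that of NFKBIB lies above 0, and those of the other 6 genes include 0.

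Levels of different genes were set side by side only per length, as CPM per kb of annotated exon. NFKBIA was the highest of the 9 in both groups, at 23.8 ± 0.740 CPM per kb in MSLN-KO and 29.6 ± 0.851 CPM per kb in WT. REL came next in MSLN-KO, with 11.6 ± 0.227 CPM per kb, above NFKB1 with 10.4 ± 0.497. In WT the order of these was the other way round, with 13.5 ± 0.256 CPM per kb for NFKB1 and 10.5 ± 1.30 for REL, and in neither group did their libraries overlap. This order rests on the length used: divided by the longest annotated transcript, NFKB1 stood above REL in both groups, at 15.9 and 13.6 CPM per kb in MSLN-KO and 20.7 and 12.3 in WT.

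RELA followed with 6.85 ± 0.638 CPM per kb in MSLN-KO and 6.69 ± 0.137 in WT, close to NFKBIE with 6.39 ± 0.198 and 6.28 ± 0.275. Their libraries overlapped in MSLN-KO and lay apart by a small margin in WT. In MSLN-KO, NFKBIB (4.59 ± 0.329 CPM per kb) stood above RELB (3.92 ± 0.157), NFKB2 (3.39 ± 0.174) and TNFAIP3 (3.28 ± 0.212), and of these neighbours NFKB2 and TNFAIP3 overlapped. In WT, RELB (3.56 ± 0.227), NFKB2 (3.48 ± 0.143), NFKBIB (3.10 ± 0.359) and TNFAIP3 (3.03 ± 0.470) each overlapped the next, so NFKBIB was not separated there from its neighbours in the order.

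The summed level of the 5 subunits per kb was 36.1 ± 1.04 CPM in MSLN-KO and 37.8 ± 0.626 CPM in WT (exact two-sided permutation p = 0.1). NFKB1 made up 28.6%, 29.3% and 28.2% of that sum in MSLN-KO and 36.5%, 34.5% and 36.5% in WT, a mean difference of -7.15 percentage points. REL made up 31.8%, 30.8% and 33.8% in MSLN-KO and 26.1%, 31.2% and 26.1% in WT, with overlapping groups. RELB accounted for 10.8% ± 0.526 in MSLN-KO and 9.43% ± 0.752 in WT. Exact two-sided permutation tests gave p = 0.1 for NFKB1 and RELB, 0.2 for REL, 0.3 for RELA and 0.8 for NFKB2, and 0.1 is the smallest p that 3 libraries against 3 allow. Shares of 1 sum are bound to each other, so a lower NFKB1 share raises the others and these tests are not separate results. The level of RELB itself was not called. Among the 3 IkB genes, NFKBIA made up 68.4% ± 0.681 of their sum in MSLN-KO and 75.9% ± 1.01 in WT, while NFKBIB had 13.2% ± 0.702 in MSLN-KO and 7.93% ± 0.696 in WT. These 3 shares were not tested. The size and order of all these shares rest on the length used. Per kb of the longest annotated transcript, NFKB1 stood above REL in MSLN-KO too (15.9 and 13.6 CPM per kb). With that length, or without 1 library, the difference of the NFKB1 share stayed between -7.84 and -6.79 percentage points.

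**Figure D3:**
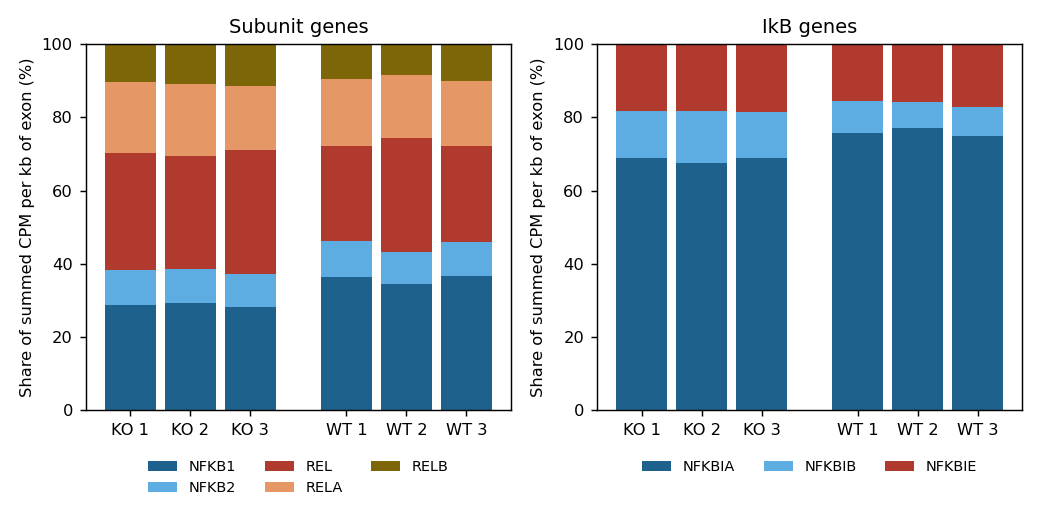
Share of each gene in the summed CPM per kb of exon of the 5 subunit genes (left) and of the 3 IkB genes (right), 1 bar per library, MSLN-KO libraries on the left of each panel. The NFKB1 share is 28.2% to 29.3% in MSLN-KO and 34.5% to 36.5% in WT, and NFKBIA holds the largest part of the IkB sum in every library.

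The kappa B motif, to which NF-kB dimers bind, is found before RefSeq starts of several of these genes. The matches of REL, TNFAIP3, NFKB2 and NFKBIB lie inside the GENCODE bounds given above, and those of NFKB1 and NFKBIA lie outside them. The RefSeq promoter windows held 7 of the 9 listed genes (RELB and NFKBIE had no entry), with 12 start sites in all. The 250 bases before each start were searched on both strands for the 10-base kappa B consensus, counting overlapping matches of the motif and its reverse complement. A match was present at 7 of 12 starts and in 6 of 7 genes, beside 9.96% of all 35116 starts, and 11.8% of starts and 15.4% of genes among those listed in the table. RELA was the gene with no match in its windows. A match is a string of letters here and was not measured as a bound site.

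The stretches of 30 bases around the matches, 5′ to 3′ on the strand of the gene and with the match in capitals, show the likeness between called and uncalled genes. There were 10 such stretches, 4 of them before starts of NFKB2, of which 2 are given. Shown are REL at chr2:60881518-60881547, NFKB1 at chr4:102501300-102501329, TNFAIP3 at chr6:137867182-137867211 and chr6:137867194-137867223, NFKB2 at chr10:102394462-102394491 and chr10:102395674-102395703, NFKBIA at chr14:35404811-35404840 (minus strand) and NFKBIB at chr19:38899932-38899961 (GRCh38.p14).
REL: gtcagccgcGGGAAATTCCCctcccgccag
NFKB1: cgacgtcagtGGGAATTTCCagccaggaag
TNFAIP3: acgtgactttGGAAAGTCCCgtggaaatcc
TNFAIP3: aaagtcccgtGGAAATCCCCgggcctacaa
NFKB2: aaacgtcatGGGAATTCCCCcctccggggg
NFKB2: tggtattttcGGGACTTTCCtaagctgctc
NFKBIA: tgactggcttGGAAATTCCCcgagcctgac
NFKBIB: ggcgtggtgGGGAATTTCCCgcagggcgga

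NFKB1 and NFKBIB hold the same 10 letters, GGGAATTTCC, 49 to 40 bases before a start of NFKB1 and from 28 bases before a start of NFKBIB. NFKB1 was called lower and NFKBIB higher. REL and NFKBIA share GGAAATTCCC, which reads GGGAATTTCC on the other strand. NFKB1, NFKBIB, REL and NFKBIA thus hold the same 10 base pairs. Genes with a match were thus found among those lower, higher and not called.

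Among the 5 genes whose profile over the 6 libraries lay nearest to that of NFKBIB, by root-mean-square distance of centred log2(CPM + 1), were STAR, CFP, PLK3 and FAM86DP, at distances of 0.03 to 0.04, beside a median distance of 0.29 over all genes. The log2 changes of these 4 ran from 0.50 to 0.55. Among the 5 nearest to REL were ST3GAL5, LNPEP, MIR600HG and PPP2R5E, at 0.01 to 0.02 (median 0.18 over all genes), with log2 changes of 0.13 to 0.16. These genes were chosen for their small distance over the same 6 libraries, so their like log2 changes follow from the choice. The likeness was not tested.

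Upstream of the members, genes of receptors and adaptors were more often lower than higher. Of 28 listed (32 in the list), 13 fell, 1 rose and 14 were not called, with a median log2 change of -0.22, beside 0.01 over all genes. The share called, 50%, was near the 45.7% of all genes, of which 22.4% were higher and 23.3% lower. IL1R1, the interleukin-1 receptor, fell to 1.81 ± 0.363 CPM in MSLN-KO, against 6.07 ± 0.743 CPM in WT, and CD14, the co-receptor for lipopolysaccharide, to 4.21 ± 0.849 CPM in MSLN-KO, against 11.3 ± 1.97 CPM in WT. TLR4, the lipopolysaccharide receptor itself, stood at 82.7, 78.9 and 90.6 CPM in MSLN-KO and 158, 165 and 165 CPM in WT, with no overlap (log2 change -0.95, SE 0.06, limma adjusted p = 5.8e-08). TNFRSF11A, the receptor RANK, changed by -0.64 (SE 0.16, limma adjusted p = 0.0048). IL1R1 and TNFRSF11A lay below 4.90 CPM in every MSLN-KO library, and CD14 in MSLN-KO replicates 1 and 2. Every listed gene reached that level in at least 3 libraries. IL1R1, TNFRSF11A and CD14 can thus be listed through WT, so their calls are no separate result. The 13 that fell include them. The 1 gene that rose was IRAK4, a kinase that acts directly after the Toll-like and interleukin-1 receptors, with 56.8 ± 5.43 CPM in MSLN-KO and 39.8 ± 1.32 CPM in WT. CD14 is also in the list of myeloid and monocytic markers given above, most of which were lower.

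Genes of the kinases and ubiquitin machinery between receptor and IkB were called at about the rate of all genes. All 28 were listed, and 5 rose, 8 fell and 15 were not called, with a median log2 change of 0.01. The share called was 46.4%, beside 45.7% of all genes. CARD9, an adaptor of myeloid lectin receptors, rose 1.83-fold, to 79.2 ± 6.74 CPM in MSLN-KO, against 43.2 ± 6.00 CPM in WT. PRKCB, a protein kinase C gene, rose 1.55-fold. RBCK1 and RNF31, which encode HOIL-1 and HOIP of the linear ubiquitin chain assembly complex, rose 1.53-fold and 1.42-fold (limma adjusted p = 2.6e-05 and 0.00063). BCL10, an adaptor gene between antigen receptors and the IkB kinase, fell to 78.2% of the WT level. BIRC3, a ubiquitin ligase gene, fell to 13.7 ± 2.01 CPM in MSLN-KO, against 20.6 ± 1.49 CPM in WT, and UBE2N, the ubiquitin-conjugating enzyme Ubc13, to 79.1% of the WT level. Among the kinase subunits, named for their role outside the rule for named genes, CHUK (IKK-alpha) stood at 49.1 ± 1.90 CPM in MSLN-KO and 49.7 ± 3.28 CPM in WT and was not called. IKBKG (NEMO) stood at 24.6 ± 2.37 CPM in MSLN-KO and 24.1 ± 2.66 CPM in WT and was not called either. IKBKB (IKK-beta) fell to 67.5 ± 3.08 CPM in MSLN-KO, against 81.7 ± 0.746 CPM in WT, with no overlap (log2 change -0.27, SE 0.06, limma adjusted p = 0.0017).

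Of 26 listed further inhibitors and coregulators (27 in the list), 6 rose, 5 fell and 15 were not called (median log2 change -0.01). The share called was 42.3%, not above the 45.7% of all genes. OTUD7B and CYLD, deubiquitinases that restrain the pathway, rose 1.56-fold and 1.29-fold. NKIRAS2, an IkB-interacting Ras-like protein, rose 1.41-fold, and TAX1BP1, a partner of A20, rose 1.39-fold. NFKBIZ, which encodes the nuclear IkB-zeta, fell to 42.8 ± 1.47 CPM in MSLN-KO, against 60.3 ± 5.16 CPM in WT (log2 change -0.48, SE 0.07, limma adjusted p = 0.00011). PIAS1 fell to 61.9% of the WT level and lies on chromosome 15, where 83.0% of 371 listed genes were called lower. TNIP1, another partner of A20, changed by -0.26 (limma adjusted p = 0.015, and 0.064 without WT replicate 1), and COMMD1 by -0.24 (limma adjusted p = 0.045, lost without MSLN-KO replicate 1, MSLN-KO replicate 3, or any of the 3 WT libraries). The count of 5 that fell was 3 without MSLN-KO replicate 1, 2 without WT replicate 1 and 3 without WT replicate 3.

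Known target genes of NF-kB split between rises and falls. Of 39 listed (56 in the list), 15 rose, 16 fell and 8 were not called, and the median log2 change was -0.01, beside 0.01 over all genes. CCND2 (cyclin D2) had 47.0, 49.3 and 41.8 CPM in MSLN-KO and 0.816, 1.93 and 1.26 CPM in WT. PIM1, a survival kinase gene, rose 2.13-fold to 79.7 ± 4.67 CPM in MSLN-KO, against 37.4 ± 1.255 CPM in WT, and the early response genes IER3 and IER2 rose 2.98-fold and 1.71-fold. BCL2A1, an anti-apoptotic member of the BCL2 family, fell to a mean of 2.50 CPM in MSLN-KO, against 7.18 CPM in WT, or 34.8% of the WT level (limma adjusted p = 1.7e-05). CCR7, a chemokine receptor, fell to 43.4% of the WT level, MMP9, a gelatinase, to 43.9%, and B2M, the light chain of MHC class I, to 47.4%. BCL2A1 and B2M lie on chromosome 15, and without genes of that chromosome 15 targets rose and 14 fell. The share of listed targets called was 79.5%, beside 45.7% of all genes, and the difference was not tested. Every listed gene reached 4.90 CPM in at least 3 libraries, and CCND2, IER3, BCL2A1 and MMP9 did so in 1 group only. The same held for CXCL8 and PTGS2, which are outside the rule for named genes. CCL2, also outside it, reached the level in every WT library but not in MSLN-KO replicate 3. Such genes can be listed through the group where they are high, so their calls are no separate result.

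**Figure D4:**
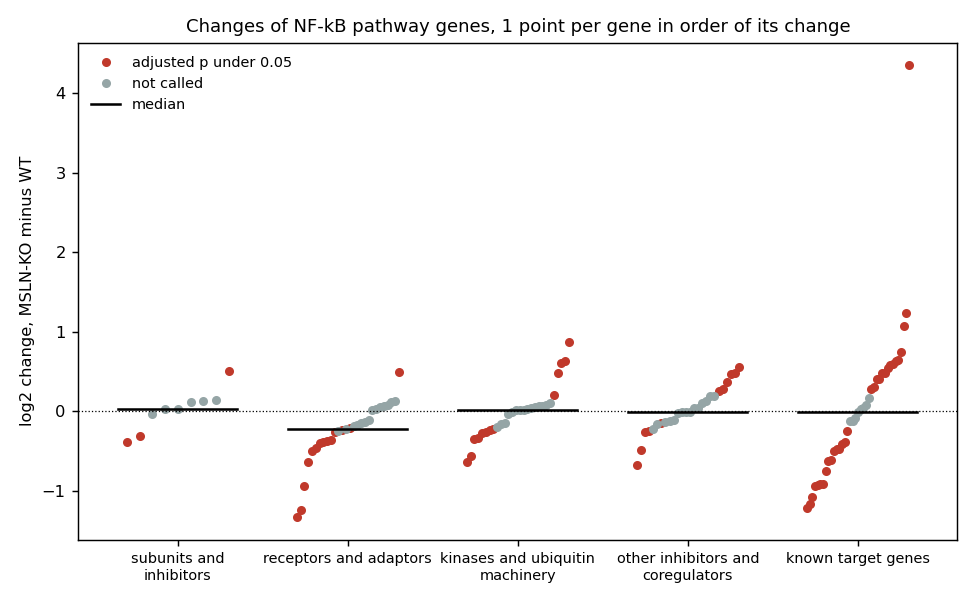
Log2 change, MSLN-KO minus WT, of the 9 listed subunit and inhibitor genes and of 4 lists of pathway genes, 1 point per gene in order of its change; red points passed an adjusted p of 0.05 and black lines are medians. The 9 genes stay within 0.51 of 0, the receptor list has its median at -0.22, and the targets spread to both sides, with CCND2 at 4.35.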

How the data were processed

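RNA of 6 NOMO-1 samples, 3 MSLN-KO and 3 WT, was sequenced; per the labels' protocols, total RNA was depleted of ribosomal RNA and made into stranded libraries. The authors deposited 1 table of TMM-normalized CPM, made, per the submitters' processing notes, on GRCh38/hg38 with the tools STAR, featureCounts and edgeR. For versions, annotation release, strand setting and low-count filter the sources used here give nothing. Every listed gene reached 4.90 CPM or more in at least 3 libraries. A gene can thus be listed through 1 group alone, and IL1R1, for example, reached this level in WT only. Values were whole multiples of 1 step per column (within 0.01 of it) in 100% of cases, which gives the read numbers printed. Too few low values were listed to check that step to the standard set beforehand, so no count model was fitted.

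Identifiers were matched to symbols for 11354 of 11363 genes, and positions and exon lengths came from GENCODE release 29 (GRCh38). Promoter sequences are RefSeq's, on GRCh38.p14. The groups were compared with limma 3.58.1 in R 4.3.3 (lmFit, eBayes with trend) on log2(CPM + 1) over all genes and all 6 libraries, with no filter and no covariate, two-sided, and Benjamini-Hochberg adjustment over all genes. Log2 changes on this scale are smaller than the true change where CPM is low, and a fold is 1 group's mean CPM over the other's. Named are all members, up to 4 called genes in each direction per pathway list, and genes among the 5 nearest profiles of 2 members; some genes that this rule takes are not reported here, and genes outside this rule are marked. The members and lists were chosen with earlier results of these data known.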

Additional observations from a re-analysis of the deposited data

How the results depend on the processing

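NFKB1, NFKBIA, NFKBIB and MSLN kept their direction and their call under every alternative run (other pseudocounts, a minimum mean of 5 CPM, 2 other scalings, no variance trend, a replicate block, and each library left out). Without 1 library, the log2 change ran from -0.41 to -0.35 in NFKB1, from -0.33 to -0.29 in NFKBIA and from 0.44 to 0.59 in NFKBIB. That of REL ran from 0.092 to 0.24, called without WT replicate 2 only. Changes near 0 turned their sign without 1 library, uncalled on both sides, from -0.069 to 0.00099 in NFKB2 (the upper end without MSLN-KO replicate 3), -0.02 to 0.11 in RELA (-0.021 without MSLN-KO replicate 2) and -0.0052 to 0.054 in NFKBIE (the lower end without WT replicate 2). Members called higher were between 1 and 2. The 5 further inhibitors and coregulators that fell were 3 with columns rescaled to 1 common total, 3 with the replicate block, and between 2 and 4 without 1 library; the cause was not tested. With the replicate block, 4946 genes were called in place of 5197 and no call of a member changed. The correlations of same-numbered deviations from the group means were 0.19, -0.17 and -0.09, so the numbers were not taken as pairs, and not every library correlated best with its own number. The median log2 change of all genes was 0.04 with rescaled columns, whose totals had run from 967718 to 1009572 CPM. The edgeR and DESeq2 alternatives that had been planned were not run, since too few low values were listed to check the recovered reads to the standard set beforehand. The lists without chromosome 15 were added after the data were seen. NFKBIB, with 166 reads in its shallowest library, is the member whose values are the least precise by counting.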

Other observations

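The list of known targets holds several cytokine and chemokine genes, named here after their values were seen. TNF, the cytokine that both activates NF-kB and is induced by it, had 15.2, 14.3 and 12.5 CPM in MSLN-KO and 11.1, 11.5 and 10.8 CPM in WT (log2 change 0.31, SE 0.09, limma adjusted p = 0.015). The chemokine genes CXCL8 and CCL2 fell to 4.20 ± 0.243 and 5.13 ± 0.464 CPM in MSLN-KO, against 8.89 ± 1.67 and 9.39 ± 1.81 CPM in WT. CXCL8 lay below 4.90 CPM in every MSLN-KO library, and CCL2 in MSLN-KO replicate 3. Every listed gene reached that level in at least 3 libraries. CXCL8 and CCL2 can thus be listed through WT, so their calls are no separate result. CXCL10, another chemokine gene, fell to 6.31 ± 0.561 CPM in MSLN-KO, against 10.3 ± 2.37 CPM in WT (limma adjusted p = 0.0035). CCL5 stood at 90.6 ± 10.9 CPM in MSLN-KO and 80.6 ± 8.62 CPM in WT and was not called (limma adjusted p = 0.16). IL1B, which encodes interleukin-1 beta, stood at 6.21 ± 0.538 CPM in MSLN-KO and 6.65 ± 0.753 CPM in WT and was not called (limma adjusted p = 0.57).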
